A study of Rattus norvegicus with 6 samples.

Results

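The comparison described here set the brain tissue of young rats 14 d after stroke against that of young rats 3 d after stroke, as the difference of 2 of the 6 arrays of the series. Genes were those whose probe sets carry 1 symbol, with the probe set of the highest mean over the 6 arrays standing for a gene, and 10947 of 14497 such genes reached the 40th percentile of at least 1 array and were compared. RNA levels were measured on single-channel Affymetrix rat whole-transcript arrays in male Sprague-Dawley rats, an outbred strain. In the stroke animals a tungsten hook had lifted the middle cerebral artery for a time, so that its flow stopped and then returned, and the tissue was taken from around the infarct. The 14 d and the 3 d array each held RNA pooled from 19 young rats of 3 to 4 months. Values of 4 more arrays are given beside them: aged rats of 19 to 20 months at 14 d and at 3 d (23 rats pooled at each time), young naive rats of 3 to 5 months (15 rats pooled) and aged naive rats of 18 to 20 months (15 rats pooled), where naive animals had no stroke. The naive tissue is labelled as healthy brain with no region named. Each group was 1 array of 1 pool, so no value has an error, no difference was tested, and differences between animals cannot be seen. All values are on the scale of the deposited array values, taken as log2. A change is the 14 d value minus the 3 d value, so that 1 is a 2-fold difference. Levels of different genes come from different probes and are not compared with each other.

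Around an infarct, resident microglia, macrophages that enter from the blood, astrocytes and vascular cells divide in the first days, while astrocytes and phagocytes turn on acute-phase and chemotactic genes. Over the following weeks a scar of astrocytes and of fibroblasts forms, and phagocytes clear the debris of dead neurons and myelin. Type I interferons act through transcription factors that bind the interferon-stimulated response element in the promoters of antiviral genes. Genes of mitosis are driven in dividing cells through another element, the cell cycle genes homology region, and genes of DNA replication through E2F factors.

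In young rats 48 genes were at least 2-fold higher at 14 d than at 3 d (0.438% of those compared) and 164 were at least 2-fold lower (1.5%). The median change over all genes was -0.08, 65.1% of genes lay within 0.25 of no difference, and 1% of genes lay below -1.25 and 1% above 0.79. Of all genes compared 35.9% lay above 0, and the counts above or below 0 in the lists stand beside that share. Genes of cell division made up 47 of the 164 lower genes, the largest theme among them. The lists were chosen with earlier results of these data known, so the rank of a theme is not independent of the data. Of the 48 higher genes, 15 belonged to lists of innate immunity (136 genes, with interferon, complement and chemokine genes among them). The lists of matrix, meninges and vessels (169 genes) held 16 of the 48. No gene of the cell division lists (75 genes), the neuronal lists (217) or the stress and metabolism lists (217) was among those 48. With 0.438% of all genes this much higher, a count of 0 in these lists is near that share. With 1.5% this much lower, a count of 0 past 2-fold in any single list below is likewise near the overall shares. The lists hold 929 genes, and 15 of the higher and 84 of the lower genes are in none of them. These are counts of size on single arrays: the 40th percentile of the 14 d array lay at 6.62, and 73 of the 164 lower genes were below it there, so the size of their difference is less certain.

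**Figure D1:**
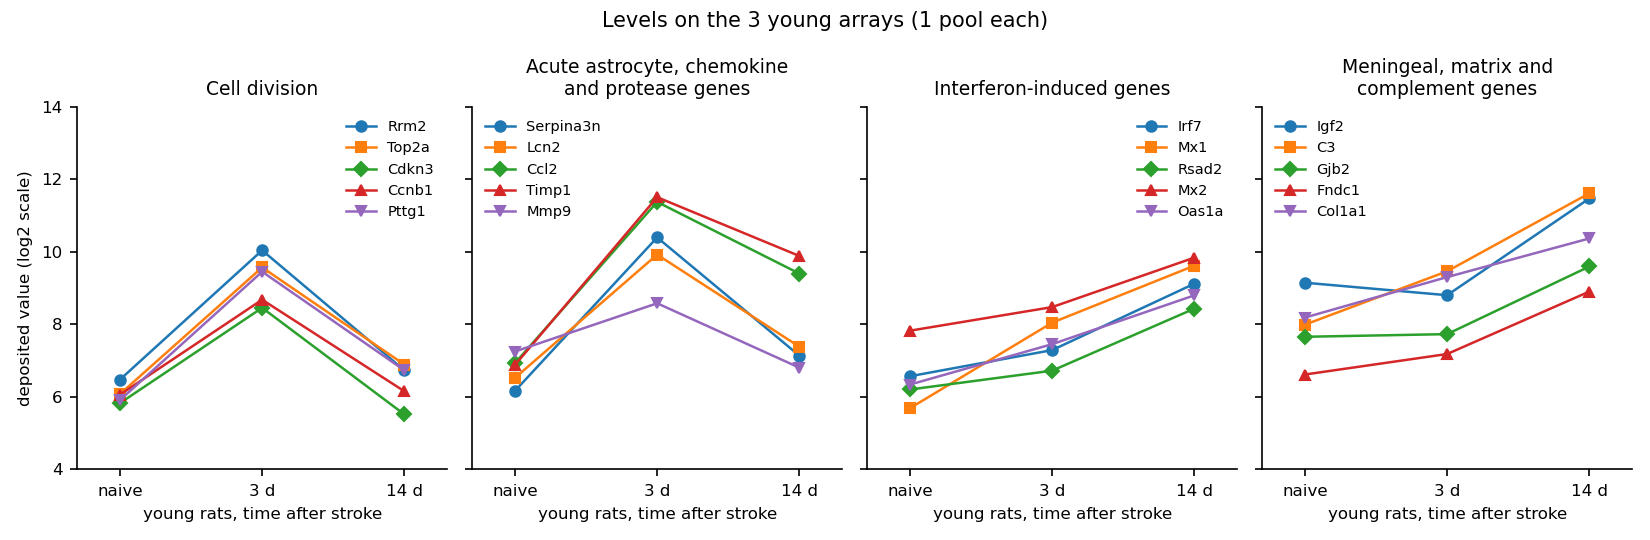
Deposited values (log2 scale, vertical axis) of 20 genes on the 3 young arrays (naive, 3 d and 14 d along the horizontal axis); each point is 1 pool and lines join the points of a gene. Cell division and acute genes peak at 3 d, interferon-induced genes are higher at each later time, and Igf2 and Gjb2 are near their naive value at 3 d and higher at 14 d.

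The defining markers of neurons, astrocytes, oligodendrocytes, microglia and endothelium were present on both arrays, and none of these 26 genes differed 2-fold between them. Over all genes 0.438% were at least 2-fold higher and 1.5% lower, so that count is near the overall share. Above 0 were 0 of 6 neuronal, 0 of 5 endothelial, 4 of 5 astrocyte, 3 of 4 oligodendrocyte and 5 of 6 microglial and macrophage markers. The 6 neuronal markers had a mean level of 11.20 at 14 d and 11.33 at 3 d, and the 6 microglial and macrophage markers 10.35 at 14 d and 10.29 at 3 d. Markers of structures at the brain's surface and in its ventricles differed more. The 5 meningeal markers averaged 9.64 at 14 d and 8.48 at 3 d, with all 5 higher and 3 of them at least 2-fold. The 5 choroid plexus markers averaged 9.14 at 14 d and 8.24 at 3 d, with all 5 higher and 2 at least 2-fold. The 5 striatal markers averaged 8.63 at 14 d and 8.34 at 3 d, against 9.61 in naive tissue, and the 2 measured cortical markers 10.44 at 14 d and 10.48 at 3 d. Of the lymphocyte markers, Cd3e, Cd3g and Ms4a1 did not reach the filter on any array. In pooled tissue of this kind, fewer cells of a type and less RNA per cell cannot be told apart.

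The gene lists of cell division held the lowest medians of all the lists. Of 40 measured genes of mitosis, 33 were at least 2-fold lower at 14 d and all 40 were below 0, with a median change of -1.95 against -0.08 for all genes. Rrm2, the small subunit of the ribonucleotide reductase that makes DNA precursors, measured 6.47 in naive rats, 10.04 at 3 d and 6.73 at 14 d. Its change of -3.31 was the largest of all genes that the naming rule considered, 9.94-fold lower at 14 d. The second probe set of Rrm2 gave -2.73. Top2a, the DNA topoisomerase of dividing cells, measured 6.07 in naive rats, 9.57 at 3 d and 6.89 at 14 d. For both genes the 3 d array stood far above the other young arrays, and the 14 d value lay within 1 unit of the naive value.

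Within the mitosis list the changes ranged from -2.94 to -0.38, and 7 of the 40 genes did not pass 2-fold. Ccnb1, the cyclin B1 that activates a mitotic kinase, had a change of -2.53. Ccna2, cyclin A2, which was counted in the list of DNA replication and G1/S, had -2.59. Ccnb2, cyclin B2, had -2.42, with -1.31 in its other probe set. Cdkn3, a phosphatase of cyclin-dependent kinases, measured 5.51 at 14 d and 8.45 at 3 d, and Pttg1, the securin that guards the separation of sister chromatids, 6.73 at 14 d and 9.45 at 3 d. Both were over 6-fold lower at 14 d. Bub1, a checkpoint kinase at the kinetochore, had -2.46. Pbk, a mitotic kinase, had -2.80. Of the proteins that build the central spindle and split the cell, Kif20a had a change of -2.63, Ect2 of -2.57 and Prc1 of -2.48. Of the 47 cell division genes that were at least 2-fold lower, 34 were under the 40th percentile at 14 d, so that the arrays place them near the low end of their range at 14 d.

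DNA replication genes were lower with a smaller difference. Of 35 measured genes of DNA replication and of the G1/S step, 14 were at least 2-fold lower, 34 were below 0 and 0 were 2-fold higher, with a median of -0.86. Mcm5, a subunit of the replicative helicase, measured 6.24 in naive rats, 8.22 at 3 d and 6.64 at 14 d. Gins1, which joins that helicase at the fork, had a change of -1.59. Set against naive tissue, the mitosis list had a median of 2.18 at 3 d and 0.25 at 14 d, and the replication list 0.90 at 3 d and 0.14 at 14 d. These differences use the same stroke arrays as the change itself. Fam111a, a protease that in human cells acts at replication forks, had 6.27 at 14 d and 8.93 at 3 d.

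**Figure D2:**
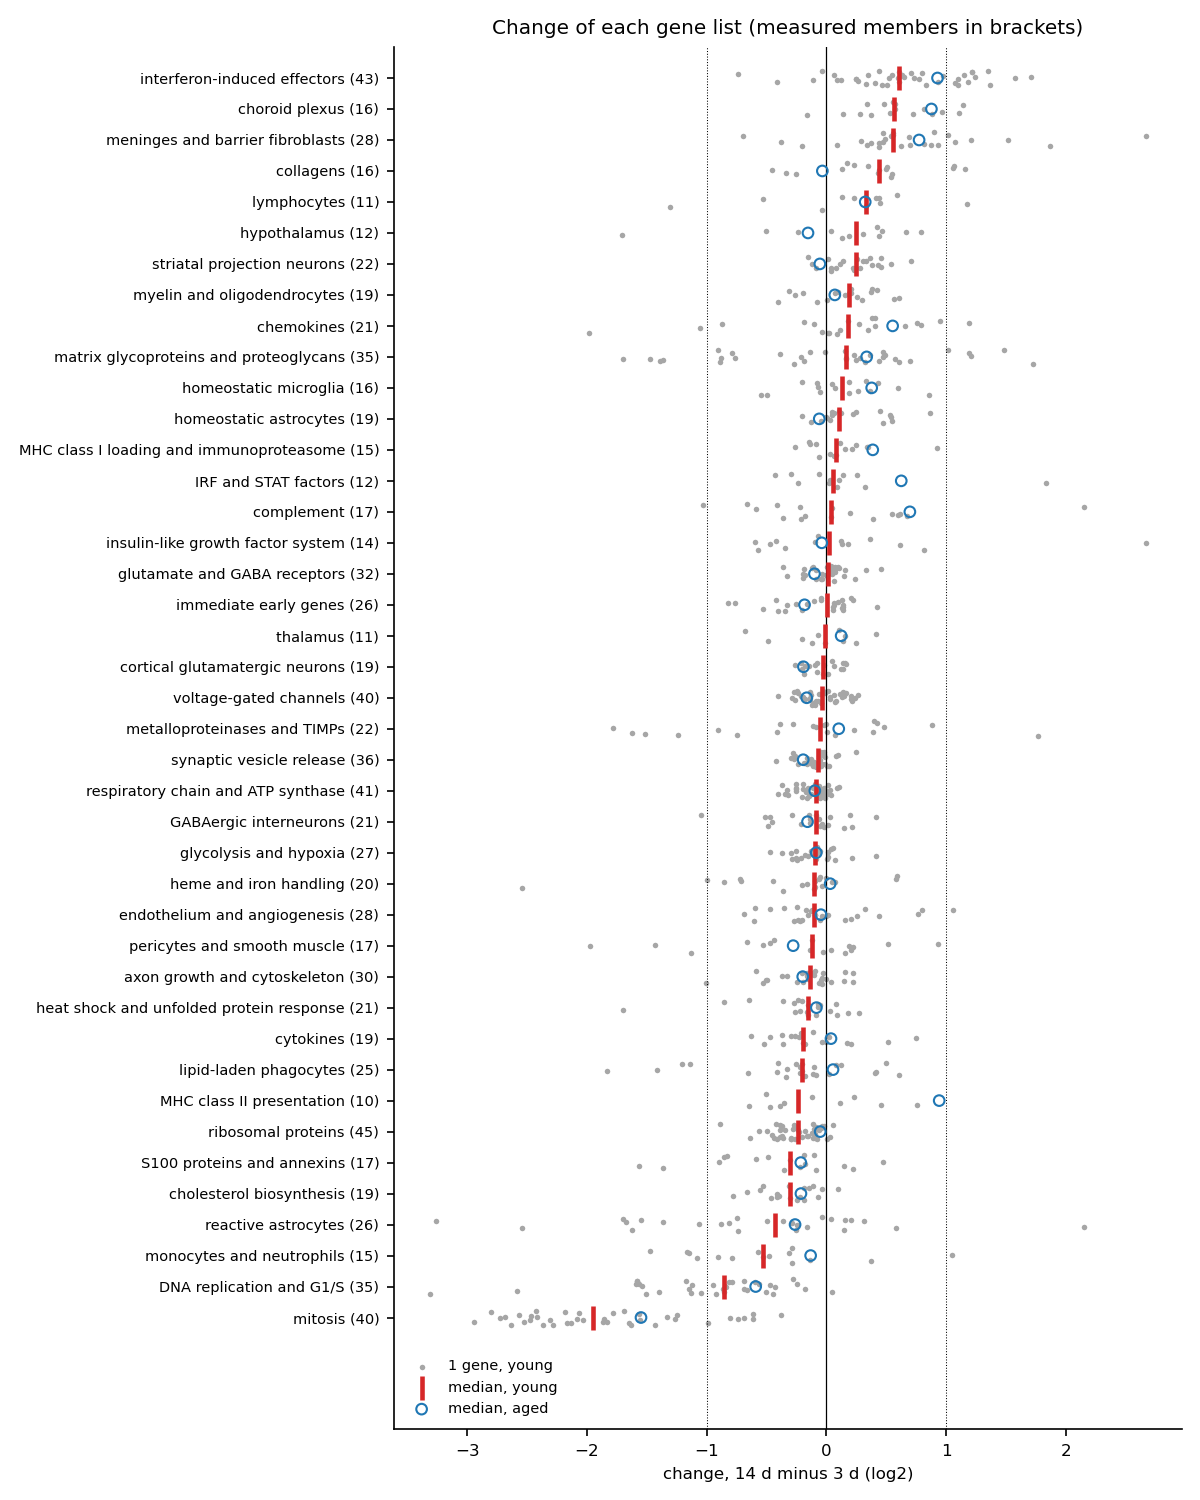
Change at 14 d minus 3 d (log2, horizontal axis) for each gene list with more than 2 measured genes (members in brackets); grey points are single genes in young rats, red bars the list's median in young rats and open blue circles its median in aged rats, and dotted lines mark 2-fold. Mitosis and DNA replication lie lowest, interferon-induced effectors, choroid plexus and meninges highest, and MHC class II has its young median below 0 and its aged median near 1.

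The promoters of the division genes are shown because many of them carry the same short element. The windows are RefSeq's for assembly GRCr8, with 250 bases before and 50 bases after a gene's first listed start, and 9040 of the compared genes matched one by gene ID. The cell cycle genes homology region was searched as TTTGAA or TTCGAA on both strands. It was found in 24 of 34 mitosis windows (70.6%) and in 59 of the 142 windows of genes at least 2-fold lower at 14 d (41.5%). These 2 sets overlap, as 33 of the 40 measured mitosis genes are among the lower genes. It was found in 1177 of the 9040 windows of all compared genes, in 19.5% of all 27457 windows, in 4 of 27 windows of the replication list and in 3 of 32 windows of genes at least 2-fold higher. The 3 windows below are those of the cell division genes with a match and the lowest changes. They are given without the bases after the start, along the gene's own strand, with the match in capitals. The Cdkn3 window (GRCr8 chr15:22502136-22502385, plus strand) starts its match 149 bases before the first of 2 listed starts. The Pttg1 window (chr10:28406327-28406576, minus strand) has it 29 bases before the start, and the Top2a window (chr10:84473094-84473343, minus strand) has 2 matches, 152 and 22 bases before it.
Cdkn3: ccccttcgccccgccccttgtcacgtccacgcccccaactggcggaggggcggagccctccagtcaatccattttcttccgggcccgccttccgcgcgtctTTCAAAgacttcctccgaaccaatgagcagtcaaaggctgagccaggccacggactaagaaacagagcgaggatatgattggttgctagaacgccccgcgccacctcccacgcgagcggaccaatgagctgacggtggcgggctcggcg
Pttg1: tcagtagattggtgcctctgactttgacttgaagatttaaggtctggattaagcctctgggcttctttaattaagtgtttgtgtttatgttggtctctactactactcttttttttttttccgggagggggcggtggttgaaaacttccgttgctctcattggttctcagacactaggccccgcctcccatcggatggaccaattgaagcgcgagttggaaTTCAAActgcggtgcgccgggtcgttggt
Top2a: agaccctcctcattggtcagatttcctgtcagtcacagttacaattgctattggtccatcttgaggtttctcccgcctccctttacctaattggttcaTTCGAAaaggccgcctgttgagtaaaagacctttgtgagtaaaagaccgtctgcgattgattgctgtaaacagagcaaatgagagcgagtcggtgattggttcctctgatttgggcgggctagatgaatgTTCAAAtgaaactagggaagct

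Other elements of division genes were counted in the same windows. CCAAT, the box that NF-Y binds, was present on either strand in 27 of 34 mitosis windows (79.4%) against 37.9% of the windows of compared genes. An E2F site, searched as TTTGGCGC, TTTCGCGC, TTTCCCGC or TTTGCCGC on both strands, was present in 11 of 27 replication windows (40.7%) and 1 of 34 mitosis windows, against 3.75% of compared genes. None of the searched strings contains another, and matches of different elements were counted separately where they overlap. A match of letters is a description of the window and does not show that a factor binds there.

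Part of the list of reactive astrocytes was lower at 14 d, and other cells of the tissue also express some of its genes. Of 26 measured, 8 were at least 2-fold lower and 1 was at least 2-fold higher, and 17 did not pass, with a median of -0.43. Serpina3n, a secreted protease inhibitor of reactive astrocytes, measured 6.16 in naive rats, 10.40 at 3 d and 7.13 at 14 d, 9.6-fold lower at 14 d than at 3 d. Lcn2, lipocalin 2, which binds iron-carrying siderophores and is released in inflammation, measured 6.52 in naive rats, 9.92 at 3 d and 7.38 at 14 d. Both genes thus stayed about 1 unit above the naive array at 14 d. Hspb1, a small heat shock protein, had 8.99 at 14 d and 10.69 at 3 d. Timp1, an inhibitor of metalloproteinases, had 9.89 at 14 d and 11.51 at 3 d. The intermediate filament gene Gfap, the classic mark of reactive astrocytes, differed far less. It measured 9.96 in naive rats, 12.22 at 3 d and 11.98 at 14 d, so most of its difference from naive tissue remained. The single reactive astrocyte gene that was at least 2-fold higher was the complement gene C3.

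Genes of the resting functions of astrocytes leaned the other way, with 15 of 19 above 0 and a median of 0.11, none of them 2-fold. Gjb6, connexin 30 of astrocyte gap junctions, measured 9.27 in naive rats, 8.68 at 3 d and 9.55 at 14 d. Mlc1, a membrane protein of astrocyte endfeet, had a change of 0.55. Aqp4, the water channel of those endfeet, had 0.45.

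Some genes of proteases, chemokines and blood-derived cells were also lower at 14 d. Ccl2, the chemokine that draws monocytes through the receptor Ccr2, measured 6.93 in naive rats, 11.38 at 3 d and 9.40 at 14 d, 3.94-fold lower at 14 d than at 3 d and still far above the naive array. Ccl7, another ligand of that receptor, had -1.05. Ccr2 itself had -1.14. The chemokine list as a whole had 2 of 21 genes at least 2-fold lower, 1 at least 2-fold higher, 15 above 0 and a median of 0.18. The gene that was higher was Cxcl10, an interferon-induced chemokine for T cells, at 8.73 at 14 d and 7.54 at 3 d. Cytokine genes had 0 of 19 past 2-fold in either direction and a median of -0.19. Among the metalloproteinases and their inhibitors 4 of 22 were at least 2-fold lower and 1 higher. Mmp9, a gelatinase that neutrophils carry, had 6.80 at 14 d and 8.58 at 3 d, and its 14 d value lay below its naive value of 7.25. Mmp12, the macrophage elastase, had 7.29 at 14 d and 8.80 at 3 d, both above its naive value of 5.18.

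Lists of myeloid cells differed in their medians. Of 15 measured genes of monocytes and neutrophils, 13 were below 0, 4 were at least 2-fold lower and 1 was at least 2-fold higher, with a median of -0.53. Thbs1, thrombospondin 1, had a change of -1.47, Fcgr3a, an Fc receptor, of -1.16 and Lyz2, lysozyme, of -1.08. The gene that was higher, F10, encodes coagulation factor X and had 1.05 (it is named here after its value was seen). The list of lipid-laden phagocytes had 4 of 25 genes at least 2-fold lower, 0 higher and a median of -0.21. Spp1, osteopontin, measured 6.89 in naive rats, 12.31 at 3 d and 11.10 at 14 d. Lgals3, galectin 3, measured 6.57 in naive rats, 11.21 at 3 d and 10.07 at 14 d. Plin2, which coats lipid droplets, had -1.41, and Fabp4, a fatty acid carrier of macrophages and endothelium, -1.84. Apart from Fabp4, which was back near its naive value of 5.25, these phagocyte genes remained over 1 unit above naive tissue at 14 d.

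The genes of resident microglia differed little between the times. Of 16 measured, 10 were above 0 and 0 passed 2-fold, with a median of 0.13. Cx3cr1, the fractalkine receptor, measured 10.02 in naive rats, 11.28 at 3 d and 11.33 at 14 d. Cd68, a lysosomal protein of phagocytes, measured 6.53 in naive rats, 10.20 at 3 d and 10.22 at 14 d. Both genes were above the naive array at both times and nearly level between the times. Among lymphocyte genes Cd4, a T cell coreceptor that rat macrophages and microglia also carry, was 2.26-fold higher, at 10.39 at 14 d and 9.22 at 3 d. Cd8a, the alpha chain of the CD8 coreceptor, was 2.47-fold lower, at 6.98 at 14 d and 8.28 at 3 d. Cd3e and Cd3g, of the T cell receptor complex, did not reach the filter on any array.

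Interferon-induced genes formed the clearest group among those that were higher. Of 43 measured effectors, 12 were at least 2-fold higher at 14 d, 0 were 2-fold lower and 39 were above 0, with a median of 0.61. Irf7, the transcription factor that amplifies type I interferon production, measured 6.56 in naive rats, 7.29 at 3 d and 9.12 at 14 d, 3.56-fold higher at 14 d than at 3 d. Rsad2, the antiviral enzyme viperin, measured 6.20 in naive rats, 6.72 at 3 d and 8.43 at 14 d. Mx1, a dynamin-like GTPase that traps viral nucleoproteins, measured 5.68 in naive rats, 8.04 at 3 d and 9.62 at 14 d. For Irf7 and Rsad2 most of the difference from naive tissue lay between 3 d and 14 d, whereas for Mx1 most of it was already present at 3 d. Mx2 had a change of 1.37. Oas1a, an enzyme that senses double-stranded RNA and activates RNase L, had 1.35. Rat Mx and Oas genes have close relatives whose probes may respond to each other, so their single values are less certain than their shared direction.

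The genes of the transcription factors of this response differed less as a group. Of 12 measured IRF and STAT genes, Irf7 alone passed 2-fold and the median was 0.06. Irf5, an interferon regulatory factor of myeloid cells, had 0.32, Stat3, which acts downstream of interleukin 6, -0.43, and Stat6, which acts downstream of interleukin 4, -0.30. Relative to naive tissue the interferon effectors had a median of 0.95 at 3 d and 1.82 at 14 d, from the same stroke arrays.

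The interferon-stimulated response element was searched in the promoter windows as GAAA, any 2 bases and GAAA again, on both strands. It was found in 21 of 30 windows of the interferon list (70.0%), in 7 of 32 windows of genes at least 2-fold higher (21.9%) and in 5 of 142 windows of genes at least 2-fold lower (3.52%). The interferon list and the higher genes overlap, as 12 of the 43 measured effectors are among the higher genes. Among all compared genes 2.92% of windows held the element, and among all 27457 windows 3.77%. The 3 windows below belong to the interferon genes with a match and the highest changes, again with the match in capitals and only the bases before the start. The Rsad2 window (GRCr8 chr6:48788121-48788370, minus strand) starts its match 147 bases before the gene's start. The Oas1a window (chr12:41330216-41330465, plus strand) has 2 overlapping matches that start 41 and 35 bases before it. The Ifit3 window (chr1:241527076-241527325, plus strand) has 1, 44 bases before it, and Ifit3, which belongs to a family of RNA-binding antiviral proteins, had a change of 1.15.
Rsad2: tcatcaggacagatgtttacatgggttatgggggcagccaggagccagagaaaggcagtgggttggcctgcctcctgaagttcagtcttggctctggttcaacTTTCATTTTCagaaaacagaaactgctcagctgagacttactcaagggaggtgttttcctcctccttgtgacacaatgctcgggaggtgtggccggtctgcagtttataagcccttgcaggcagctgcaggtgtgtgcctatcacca
Oas1a: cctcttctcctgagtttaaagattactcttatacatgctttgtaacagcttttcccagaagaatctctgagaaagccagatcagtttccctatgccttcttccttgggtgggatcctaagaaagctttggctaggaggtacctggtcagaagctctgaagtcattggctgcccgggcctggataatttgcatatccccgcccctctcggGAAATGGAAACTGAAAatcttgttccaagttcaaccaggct
Ifit3: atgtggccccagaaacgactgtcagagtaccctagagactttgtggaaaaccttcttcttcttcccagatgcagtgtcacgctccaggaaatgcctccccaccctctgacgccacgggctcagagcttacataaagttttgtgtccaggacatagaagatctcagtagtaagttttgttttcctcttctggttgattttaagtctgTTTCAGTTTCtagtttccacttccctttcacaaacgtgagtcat

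**Figure D3:**
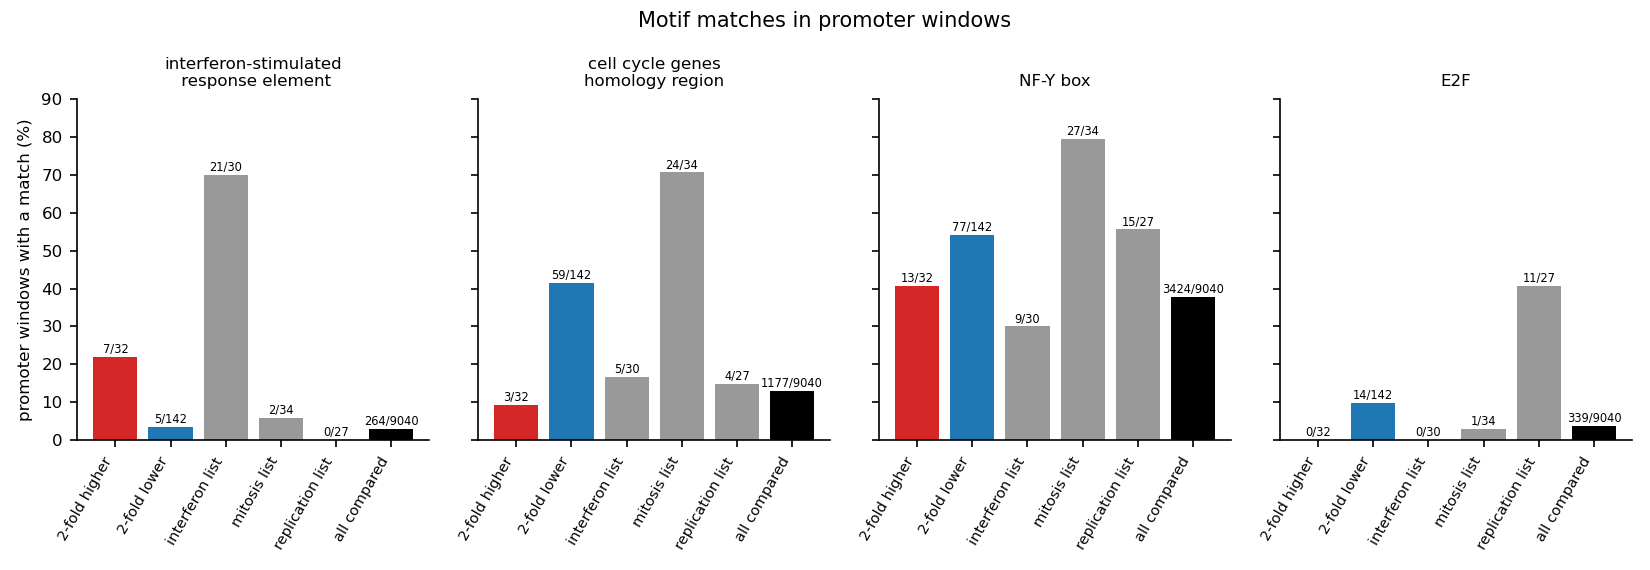
Share of promoter windows (percent, vertical axis) that hold each element, for genes at least 2-fold higher or lower at 14 d in young rats, 3 gene lists and all compared genes; numbers over the bars are windows with a match over windows searched. The response element stands out in the interferon list (21/30), the homology region in the mitosis list (24/34) and E2F sites in the replication list (11/27). The gene lists share genes with the 2-fold sets.

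Complement and antigen presentation gave no common direction in young rats. C3, the component on which all complement pathways converge, was the second highest gene at 4.45-fold, with 7.99 in naive rats, 9.46 at 3 d and 11.62 at 14 d. C5ar1, the receptor of the chemotactic fragment C5a on neutrophils and macrophages, was at least 2-fold lower, with 7.80 at 14 d and 8.83 at 3 d. Across 17 measured complement genes 9 were above 0 and 8 below, with a median of 0.04. Serping1, the C1 inhibitor, had 0.68 and C3ar1, the receptor of C3a, -0.66.

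Of the 10 measured genes of MHC class II presentation, 0 passed 2-fold, 6 were below 0 and the median was -0.23. Ctss, the protease that trims the invariant chain, had the highest change at 0.76. RT1-DMa and RT1-DMb, the chains of the rat exchange factor that loads peptide, had -0.50 and -0.64. RT1-Da, a chain of the class II molecule itself, measured 6.40 in naive rats, 9.66 at 3 d and 9.31 at 14 d, so that it was far above naive tissue at both times. The class I pathway had 10 of 15 genes above 0, 0 past 2-fold and a median of 0.08. B2m, the light chain of class I molecules, had 0.34. RT1 genes are a family of near-identical members, and their single values are uncertain.

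**Figure D4:**
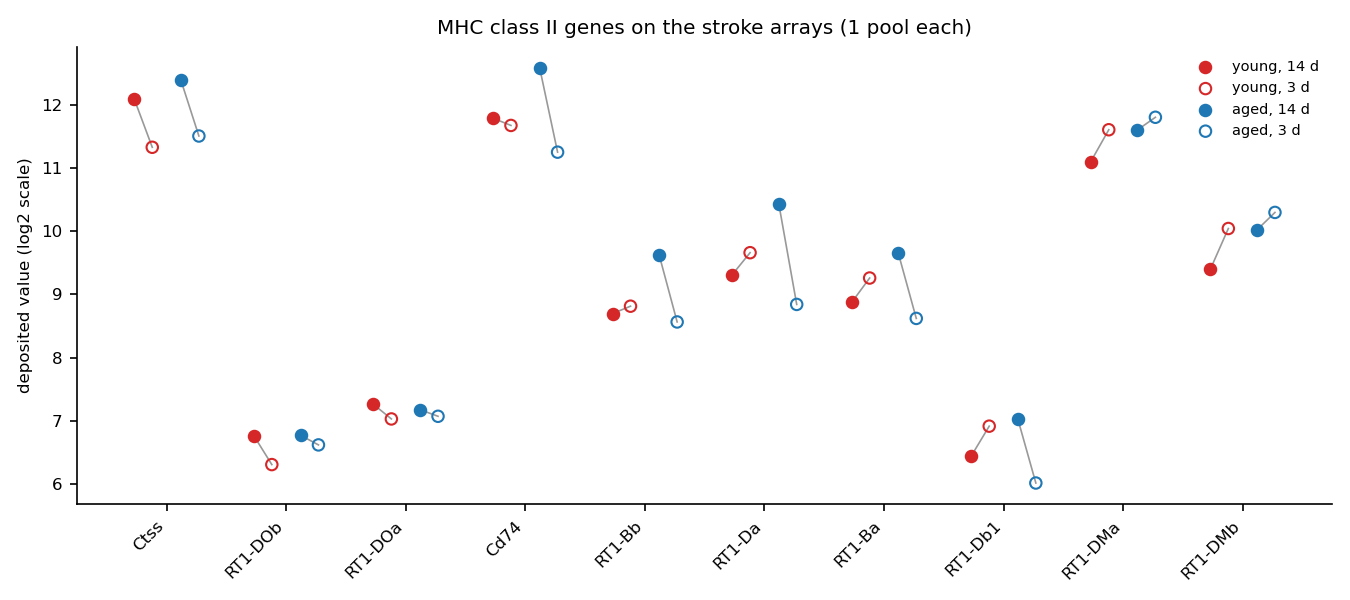
Deposited values (log2 scale, vertical axis) of the 10 measured MHC class II genes (horizontal axis) on the stroke arrays, with filled points for 14 d and open points for 3 d, red for young and blue for aged rats; each point is 1 pool. RT1-Da and RT1-Db1 are lower at 14 d in young rats and higher at 14 d in aged rats.

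Igf2 was the highest gene of the comparison. Insulin-like growth factor 2, which in the adult brain comes mainly from the meninges, choroid plexus and vessels, measured 9.15 in naive rats, 8.80 at 3 d and 11.47 at 14 d, 6.37-fold higher at 14 d than at 3 d. Of the other genes of its system 0 of 13 passed 2-fold. Igfbp2, a binding protein of these growth factors, had 10.45 at 14 d and 9.64 at 3 d, and Igfbp3, the main binding protein in serum, had a change of -0.59.

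Most genes of the meninges and barrier fibroblasts, a list that also holds Igf2, lay above 0. Of 28 measured, 6 were at least 2-fold higher (Igf2 among them), 0 were 2-fold lower and 25 were above 0, with a median of 0.56. Gjb2, connexin 26 of arachnoid and other leptomeningeal cells, measured 7.65 in naive rats, 7.73 at 3 d and 9.60 at 14 d. Slc22a6, an organic anion transporter, measured 7.45 in naive rats, 7.31 at 3 d and 8.83 at 14 d. Slc6a13, a GABA and taurine transporter of the leptomeninges, measured 8.02 in naive rats, 8.36 at 3 d and 9.44 at 14 d. All 3 were within 0.34 of the naive array at 3 d and at least 1 unit above it at 14 d. Ogn, osteoglycin, had a change of 1.21, while Dcn, decorin, had 0.44 and was already 10.50 at 3 d against 8.90 in naive rats.

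The choroid plexus genes had a similar change on another course. Of 16 measured, 15 were above 0 and 2 were at least 2-fold higher, with a median of 0.56. Ttr, transthyretin, the carrier of thyroid hormone that the plexus secretes, measured 12.19 in naive rats, 11.27 at 3 d and 12.41 at 14 d. Kcnj13, a potassium channel of the plexus epithelium, measured 8.99 in naive rats, 8.14 at 3 d and 9.25 at 14 d. Both were lower at 3 d than in naive tissue and slightly above it at 14 d. Relative to naive tissue this list had a median of -0.33 at 3 d and 0.24 at 14 d, and the meningeal list 0.27 at 3 d and 1.24 at 14 d, from the same stroke arrays. How much meninges and plexus each dissection held was not tested, nor was its part in the differences of Igf2 and of the matrix genes.

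Col1a1, Col1a2 and Col3a1 among the collagens, and several other matrix genes, were higher at 14 d. Of 16 measured collagen genes, 3 were at least 2-fold higher, 0 lower and 13 above 0, with a median of 0.44. Col1a1, the main chain of type I collagen, measured 8.19 in naive rats, 9.30 at 3 d and 10.37 at 14 d. Its partner chain Col1a2 had a change of 1.16 and Col3a1, of type III collagen, 1.06. The list of matrix glycoproteins and proteoglycans went both ways, with 5 of 35 at least 2-fold higher and 4 at least 2-fold lower. Fndc1, a fibronectin type III protein, had 8.90 at 14 d and 7.18 at 3 d, and Mfap4, a protein of elastic microfibrils, 10.03 at 14 d and 8.55 at 3 d. Adamts12, a secreted protease of matrix proteins, had 9.51 at 14 d and 7.74 at 3 d. In contrast Postn, the matricellular protein periostin, had 7.02 at 14 d and 8.72 at 3 d. Cpz, a secreted carboxypeptidase, had a change of 1.40.

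Among vessel genes those of the endothelium differed little. Of 28 endothelial and angiogenic genes, 1 was at least 2-fold higher, 0 lower and the median was -0.10. That gene was Aplnr, the apelin receptor, at 8.14 at 14 d and 7.09 at 3 d. Vcam1, an adhesion molecule for leukocytes, had 0.80, and the junction protein Pecam1 -0.60. Of 17 genes of pericytes and smooth muscle, 3 were at least 2-fold lower and 0 higher, with a median of -0.12 that became -0.44 with the 60th percentile filter. Tagln, the actin-binding protein transgelin, measured 8.09 in naive rats, 10.55 at 3 d and 8.58 at 14 d. Anpep, an aminopeptidase that macrophages also carry, had -1.44, and Des, the filament protein desmin, -1.13. Vtn, vitronectin, which brain pericytes express, was 1.91-fold higher.

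Neuronal genes were nearly level between the times. Of 36 genes of vesicle release 0 passed 2-fold and 31 were below 0, with a median of -0.07 against -0.08 for all genes. Over all genes 35.9% lay above 0, 0.438% were at least 2-fold higher and 1.5% at least 2-fold lower. Counts of 0 past 2-fold in these lists are near those shares. Voltage-gated channels had 0 of 40 past 2-fold and a median of -0.04, and glutamate and GABA receptors 0 of 32 and 0.02. Cortical glutamatergic neurons had 0 of 19 and -0.03. With quantile normalization the medians of vesicle release, channels and cortical neurons turned slightly above 0 (0.01, 0.04 and 0.05), and with array medians centred that of the receptors turned to -0.01, so none of these lists has a settled direction. Snap25, of the vesicle fusion complex, measured 12.78 in naive rats, 12.18 at 3 d and 12.11 at 14 d. The deficit of these lists against naive tissue was thus about the same at both times: for vesicle release the median was -0.41 at 3 d and -0.46 at 14 d.

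Genes of striatal projection neurons lay mostly above 0, as did those of the hypothalamic list, which had a median of 0.25. That hypothalamic median became 0.14 with quantile normalization and ranged from 0.08 to 0.31 over the alternatives. Of 22 striatal genes measured, 19 were above 0, none of them 2-fold, with a median of 0.24. Drd1, the dopamine receptor D1 of the direct pathway, measured 9.03 in naive rats, 7.81 at 3 d and 8.18 at 14 d. Isl1, a transcription factor of striatal and cholinergic neurons, measured 7.05 in naive rats, 5.84 at 3 d and 6.55 at 14 d. Both stroke values of Isl1 were under the 40th percentile of their arrays (6.49 at 3 d and 6.62 at 14 d), so its change is less certain. Rgs9, a regulator of dopamine signalling, measured 10.04 in naive rats, 8.30 at 3 d and 8.69 at 14 d. The 14 d values lay between those of the 3 d array and the naive array, whose region is not named. Whether the share of striatum differed between the dissections was not tested.

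The few 2-fold differences in the neuronal lists were of single genes. Npy, neuropeptide Y of interneurons, measured 9.91 in naive rats, 9.91 at 3 d and 8.87 at 14 d, the only 2-fold difference among 21 interneuron genes. Trh, thyrotropin-releasing hormone, measured 7.47 in naive rats, 8.39 at 3 d and 6.68 at 14 d, so that it was above naive tissue at 3 d and below it at 14 d. Cck, cholecystokinin, had -0.51, and Vip, vasoactive intestinal peptide, -0.47. Oxt and Avp, the hypothalamic hormones oxytocin and vasopressin, had 0.79 and 0.46, and 9 of 12 genes of the hypothalamic list were above 0. Among 30 genes of axon growth and cytoskeleton, 25 were below 0 and 1 passed 2-fold: Tubb2b, a beta-tubulin of growing neurites, at 10.22 at 14 d and 11.23 at 3 d. Immediate early genes, which report recent neuronal activity, had 13 of 26 on each side of 0.

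Myelin genes were slightly higher, with 14 of 19 above 0, 0 past 2-fold and a median of 0.19. Enpp6, a phosphodiesterase of newly formed oligodendrocytes, measured 7.75 in naive rats, 7.86 at 3 d and 8.46 at 14 d. Opalin, a membrane protein of mature oligodendrocytes, measured 9.61 in naive rats, 8.81 at 3 d and 9.38 at 14 d. Enpp6 was highest at 14 d, whereas Opalin at 14 d had come closer to the naive array.

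Lists of metabolic and stress genes mostly lay below 0 by small amounts. Of 45 ribosomal protein genes 42 were below 0, none 2-fold, with a median of -0.23 against -0.08 for all genes. Cholesterol synthesis genes had 18 of 19 below 0 and a median of -0.31. Idi1, an isomerase of that pathway, measured 7.45 in naive rats, 7.33 at 3 d and 6.55 at 14 d. S100 proteins and annexins had 14 of 17 below 0 and 2 at least 2-fold lower. S100a10, the partner of annexin A2, measured 8.50 in naive rats, 10.47 at 3 d and 9.11 at 14 d, and S100a11 had -1.56, with -1.36 to -0.59 in its other probe sets. Of the heat shock and unfolded protein list Hspb1 alone passed 2-fold of 21, and of heme and iron handling Lcn2 alone of 20. Hmox1, the heme oxygenase of macrophages, had -0.86. Glycolysis and hypoxia genes and those of the respiratory chain had 0 of 27 and 0 of 41 past 2-fold, with medians of -0.10 and -0.08. These small values stand beside a drift with signal level, whose part in them was not tested. The lowest of 10 bins of mean level had a median change of 0.17, the middle bins lay near -0.12 to -0.14, and the highest bins, in whose range ribosomal and respiratory chain genes lie on average, had -0.08 and -0.06.

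The pair of aged arrays gives the only comparison of the same times that shares no array with the young pair. In aged rats 165 genes were at least 2-fold higher at 14 d (1.51%) and 97 at least 2-fold lower (0.886%). Across the 10947 genes the young and aged changes had a Pearson correlation of 0.487, as a description across genes that are not independent. Of the genes at least 2-fold higher in either age 45 were shared, which is 93.8% of the 48 young genes and 27.3% of the 165 aged genes. Of the lower genes 85 were shared, 51.8% of the 164 young genes and 87.6% of the 97 aged genes. The young higher genes had a median of 1.54 in aged rats and the young lower genes -1.03. Igf2 had changes of 2.67 in young and 3.00 in aged rats, C3 2.15 in young and 2.25 in aged rats, and Irf7 1.83 in young and 1.91 in aged rats.

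Size differed by list between the ages, although no difference was tested. The median of the mitosis list was -1.95 in the young pair and -1.55 in the aged pair, with 34 of 40 genes lower in change in young rats. Interferon effectors had 0.61 in young and 0.93 in aged rats, and complement genes 0.04 in young and 0.70 in aged rats. Collagens had 0.44 in young and -0.03 in aged rats, with 10 of 16 genes higher in change in young rats. The same 3 collagen genes passed 2-fold in both ages, and all 3 had the larger change in aged rats. Col1a1 had 1.07 in young and 1.47 in aged rats, Col1a2 1.16 and 1.49, and Col3a1 1.06 and 1.35. For MHC class II presentation the medians were -0.23 in young and 0.94 in aged rats, and 5 of the 10 genes were at least 2-fold higher in aged rats against 0 in young rats. RT1-Da measured 9.31 at 14 d and 9.66 at 3 d in young rats, and 10.43 at 14 d and 8.84 at 3 d in aged rats. Its naive value was 6.40 in young and 8.01 in aged rats. The mean level of the class II list was 7.59 in young naive and 8.20 in aged naive rats. Lilrb4, an inhibitory receptor of myeloid cells, had 7.06 at 14 d and 8.84 at 3 d in young rats, and 9.43 at 14 d and 9.16 at 3 d in aged rats. Fam111a had changes of -2.65 in young and -0.97 in aged rats, and Serpina3n -3.26 in young and -2.02 in aged rats.

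**Figure D5:**
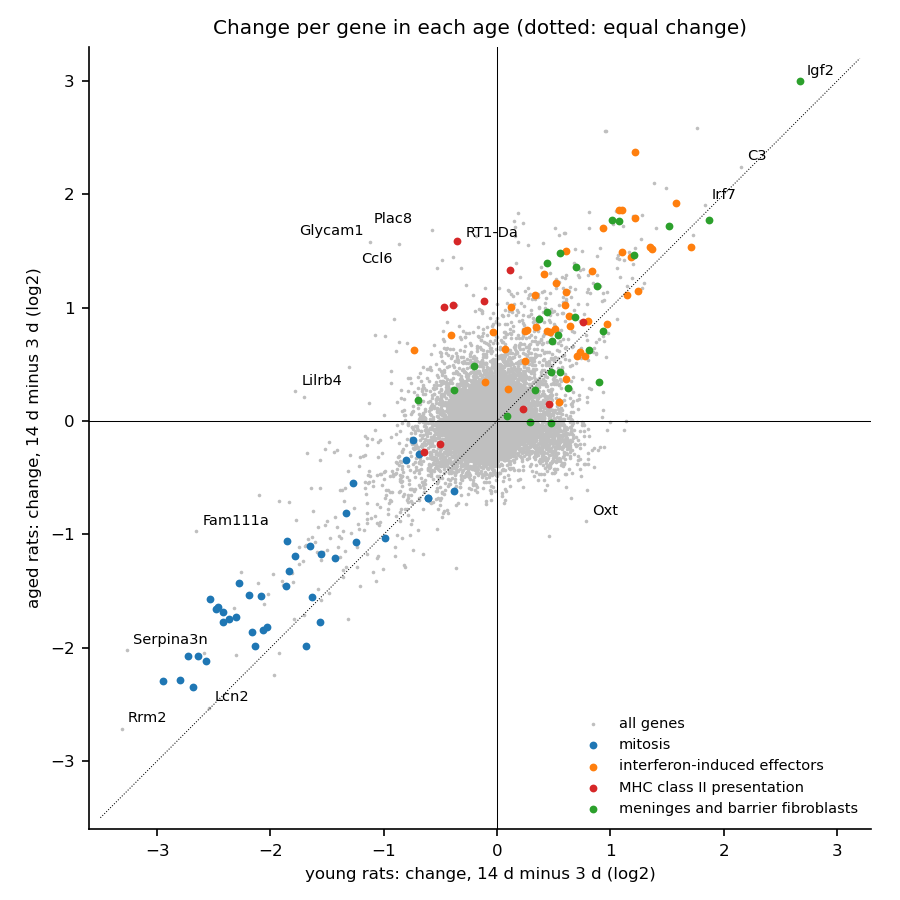
Change at 14 d minus 3 d (log2) in young rats (horizontal axis) and aged rats (vertical axis), with 1 point per gene for the 10947 genes, 4 lists coloured and the dotted line at equal change. Mitosis genes lie low in both ages, Igf2, C3 and Irf7 high in both, and several MHC class II genes together with Glycam1, Ccl6 and Plac8 lie below 0 in young and above 0 in aged rats.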

How the data were processed

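RNA of 6 pools was measured on 6 single-channel Affymetrix arrays, 1 for each group. Per the labels' protocols, TRIzol and RNeasy Plus were used for RNA extraction and the Ambion WT Expression Kit for amplification, with biotin as the label. The submitters' processing notes name R 2.14.0 and affy. How background was corrected, how probes were summarised and scaled, and which build was used is not given in the sources used here. The authors deposited a single value for each probe set on each array, taken here as log2. Its base was inferred from how far the values range, and every change and fold depends on it. The array medians lay between 7.09 and 7.15, and such a common scale removes any overall change in RNA content. No scan date or batch is given, so a batch and a group cannot be told apart.

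Of 28826 probe sets, the platform annotation gives 15209 a single symbol and 306 several, and 13311 are unnamed here. Single symbols matched the RefSeq table of assembly GRCr8 in 15178 cases, and it was used for names. A gene was kept if its probe set reached the 40th percentile of its array on at least 1 of the 6 arrays. Of the 3550 genes not kept, 1 was at least 2-fold higher and 10 at least 2-fold lower at 14 d. Where 399 genes had several kept probe sets, that with the highest mean over the 6 arrays was used. The change was the 14 d value minus the 3 d value, computed with Python 3.11.15, numpy 2.4.6 and pandas 2.3.3, with matplotlib 3.10.9 for the figures, and a change of at least 1 was counted. With 1 array a group, no test was run. The number of arrays limits the precision, and the functions were tested on simulated data.

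The genes and the 42 lists were chosen with earlier results of these data known. Of the list entries 944 matched by symbol and 17 by synonym (Fcrl2 for Fcrls, for example). Genes were named by a rule: the 15 highest and 15 lowest changes among genes that reached the median of a young stroke array, up to 4 members of each list with the largest change, the 5 genes at each end of the young minus aged change, and every cell type marker. Names of the locus, olfactory, vomeronasal and taste receptor, miRNA and snoRNA kind were passed over. Promoters were printed for up to 3 genes with a match and the largest change in the interferon lists and in the cell division lists. Alternatives were quantile normalization, centring on array medians, no filter, a 60th percentile filter, a filter on the young stroke arrays alone, and the mean over all probe sets of a gene.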

Additional observations from a re-analysis of the deposited data

Results flagged for a closer look

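For 21 of the 218 named genes the single young pair and the single aged pair moved in opposite directions by at least 0.25 on each side, and with 1 pool a group this difference between the ages was not tested. Of these 21, the genes linked to immune functions, not all of them particular to immune cells, had a change at 14 d minus 3 d that was lower in young than in aged rats. RT1-Da, a class II chain, had -0.35 in young and 1.59 in aged rats, and RT1-Db1, another class II chain, -0.47 in young and 1.01 in aged rats. Cd8a and Cd8b, the chains of CD8, had -1.30 and -0.53 in young rats and 0.48 and 1.35 in aged rats. Plac8, a protein of leukocytes, had -0.57 in young and 1.69 in aged rats, Ccl6, a macrophage chemokine, -0.87 in young and 1.56 in aged rats, and Glycam1, a ligand of L-selectin, -1.12 in young and 1.58 in aged rats. Lilrb4 had -1.78 in young and 0.27 in aged rats. Bin2, a protein of myeloid membranes, had -0.54 in young and 0.29 in aged rats, and Stat6 -0.30 in young and 0.51 in aged rats. Glycam1 and RT1-Db1 were under the 40th percentile at 14 d in young rats (6.39 and 6.45, against 6.62). They were also under it at 3 d in aged rats (5.96 and 6.02, against 6.57), so their changes are less certain.

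Neuronal and peptide genes made up most of the opposite group, higher at 14 d in young and lower in aged rats. Of striatal genes, Isl1 had 0.71 in young and -0.34 in aged rats, Drd1 0.37 in young and -0.35 in aged rats, Syndig1l 0.54 in young and -0.52 in aged rats, and Lrrc10b 0.45 in young and -0.39 in aged rats. Isl1 was under the 40th percentile on every stroke array of both ages. Oxt had 0.79 in young and -0.89 in aged rats, and Avp 0.46 in young and -1.02 in aged rats. Egr4, an immediate early gene, had 0.42 in young and -0.35 in aged rats. Krt81 had 0.79 in young and -0.61 in aged rats, Pde11a 0.86 in young and -0.40 in aged rats, and Ptgdrl1 0.74 in young and -0.49 in aged rats. Calb2, calretinin of interneurons, ran the other way, with -0.49 in young and 0.42 in aged rats. It was under the 40th percentile at 14 d in young rats and at both times in aged rats, so its changes are less certain. The naming rule took the largest differences between the ages for some of these genes.

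Probe sets without a gene name, which enter no comparison above, held differences at shares close to those of named genes. Of 7126 that passed the same filter, 30 were at least 2-fold higher at 14 d in young rats (0.421%) and 104 at least 2-fold lower (1.46%).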

How the results depend on the processing

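Across the 6 alternatives the number of genes at least 2-fold higher at 14 d ranged from 44 to 52 and the number at least 2-fold lower from 115 to 174, against 48 and 164. The lowest counts came with the 60th percentile filter, which tested 8488 genes and so removed some by construction. The median over all genes moved by at most 0.07, and the share of higher genes among those past 2-fold was 22.6%, with 21.0% to 27.7% under the alternatives. With that stricter filter 6 list medians moved by over 0.25 as members left: mitosis to -2.31 (25 members), reactive astrocytes to -0.74 (22), pericytes and smooth muscle to -0.44 (13), collagens to 1.06 (4), choroid plexus to 0.85 (8) and lymphocytes to -0.53 (3), the last with its sign turned. The other 246 list medians under the alternatives moved by less. Medians near 0 also changed sign in 1 alternative each for the growth factor system, cortical neurons, vesicle release, channels, receptors, thalamus and red cells, and in 2 for immediate early genes. With the mean over probe sets Rrm2 gave -3.02, Ccnb2 -1.86 and Pde11a 0.56, and the other 1274 values of named genes moved by less than 0.25. No paired analysis was possible because each group has 1 array, and no replicate could be left out for the same reason. Low signal limits the size of differences: 5 of the 48 higher genes were under the 40th percentile at 3 d, and quantile normalization lowered the median change of the lowest bin of mean level to 0.02.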

Other observations

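Several genes that belong to none of the lists also differed between the young arrays. They are named here after their values were seen. Fancd2, of the Fanconi pathway of DNA repair, had 6.43 at 14 d and 8.10 at 3 d, and Bard1, the partner of Brca1, 6.53 at 14 d and 8.13 at 3 d. Calca and Calcb, the genes of the calcitonin gene-related peptides, measured 5.85 and 5.93 in naive rats, 8.02 and 7.52 at 3 d, and 5.76 and 6.09 at 14 d, so that both were close to the naive array again at 14 d. Their changes were -2.26 and -1.43 in young rats and -1.33 and -0.85 in aged rats. The myeloid genes Folr2, a folate receptor of tissue macrophages, and Fcnb, a ficolin of the lectin pathway, had -1.92 and -2.10 in young rats and -0.71 and -0.65 in aged rats.

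H19 and Igf2, imprinted neighbours that are expressed from opposite parental copies, differed in opposite directions. H19 measured 6.20 in naive rats, 7.54 at 3 d and 6.24 at 14 d, a change of -1.29 against 2.67 for Igf2. In aged rats the changes were -0.30 for H19 and 3.00 for Igf2. Cd22 and Cd72, inhibitory receptors that B cells carry and that microglia can also express, were higher at 14 d, with 1.28 and 1.02 in young rats and 1.81 and 1.74 in aged rats. The B cell marker Ms4a1 did not reach the filter on any array. Kng1, the precursor of bradykinin, measured 7.55 in naive rats, 6.53 at 3 d and 7.65 at 14 d, and its change was 1.12 in young and -0.07 in aged rats.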
